A study of Rattus norvegicus with 16 samples.

Results

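The comparison sets 8 right ventricles loaded by pulmonary artery banding (PAB) against 5 sham-operated right ventricles that held almost no RNA of the fat cell gene Adipoq, 13 of the 16 libraries in all. The 8 banded libraries were all taken, 4 from wild-type rats (WT) and 4 from rats labelled ERalpha -/- (KO). A sham library was chosen by its Adipoq level, its count per 1000000 counts of the library (counts per library total, CPM), which had to be below 5. Adipoq encodes adiponectin, a hormone made almost only by adipocytes. The limit kept WT SHAM 1, WT SHAM 4 and KO SHAM 1, 2 and 3, and left out WT SHAM 2, WT SHAM 3 and KO SHAM 4.

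All rats were female Sprague Dawley animals aged 20 to 21 weeks, and RNA came from 10 mg of right ventricle with every cell type of the piece in it. The groups were WT with sham surgery, ERalpha -/- with sham surgery, and the same 2 genotypes after 10 weeks of banding, which narrows the pulmonary artery so that the right ventricle pumps against a higher pressure. ERalpha, the product of Esr1, is a nuclear receptor for estrogen, and the KO libraries used held 7 to 19 counts of Esr1 against 70 to 131 in the WT libraries used. Whether each replicate came from its own animal is not in the labels, and a p-value here can speak only for the scatter among these libraries, which may be technical.

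Adipoq stood at 56.5, 31.0 and 13.2 CPM in the 3 sham libraries left out and at 0 to 0.0451 in the 5 kept. No sham library lay between 0.0451 and 13.2, and a limit of 1 picks the same 13 libraries. The banded libraries held 0 to 0.374, except KO PAB 3 with 5.51 (142 counts), which is above the limit but was kept because the limit applied to shams. These values chose the sham libraries, and no test of banded against sham is given for Adipoq. Among the banded libraries, all kept whatever their Adipoq, the gene also entered the check for outlying libraries given further below.

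**Figure D1:**
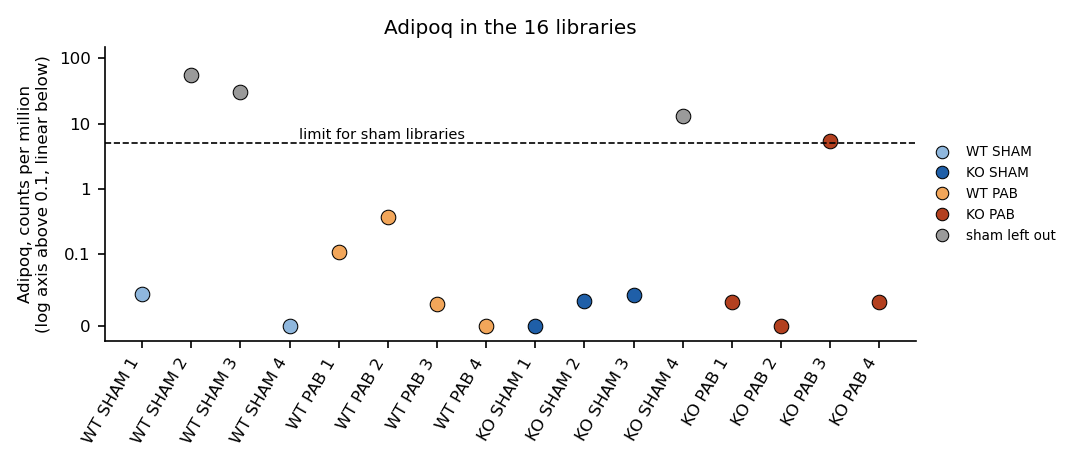
Adipoq in CPM of the library total (vertical axis, logarithmic above 0.1 and linear below) in each of the 16 libraries; each point is 1 library and the dashed line is the limit of 5 for sham libraries. WT SHAM 2, WT SHAM 3 and KO SHAM 4 (grey) lie at 13.2 to 56.5, and KO PAB 3 at 5.51 is the banded library nearest to them.

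The 3 libraries left out stood apart in more than fat, and KO PAB 3 stood apart among the banded ones. Over the left-out shams, the summed level of 15 mesothelial markers was 111 to 248 CPM, against 24.3 to 56.9 in the shams kept and 26.0 to 48.1 after banding. The summed level of 17 activated fibroblast markers was 661 to 2032 CPM, against 162 to 235 in the shams kept and 174 to 445 after banding. The summed level of 18 adipocyte markers, several of which other cells also express, was 652 to 1000 CPM in the left-out shams, 501 to 564 in the shams kept and 463 to 620 after banding. In KO PAB 3 the sum of 16 macrophage and monocyte markers was 448 CPM, against 147 to 204 in the other banded libraries. Cardiomyocyte markers were high in every library used, with sums of 61740 to 82720 CPM. Gene levels from here on are CPM scaled by TMM, which corrects each library total for composition, and the sums above are per library total. Total counts were 22168110 to 34718633 and mitochondrially encoded transcripts took 35% to 42.8% of them. In a bulk sample, fewer cells of a type and less of its RNA per cell cannot be told apart.

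A ventricle that works against a raised pressure thickens its muscle and returns to a set of fetal genes, among them natriuretic peptides and the slow myosin heavy chain. Fibroblasts lay down extracellular matrix under signals such as transforming growth factor beta (TGF-beta) and the stretch-responsive YAP and TEAD factors. The adult heart draws most of its energy from fatty acids oxidised in mitochondria, and this use is known to decline under lasting pressure load.

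Banding changed 1259 of 13583 genes tested (9.27%) with genotype as a covariate, by the quasi-likelihood test of edgeR, calling a gene changed where its p adjusted by Benjamini and Hochberg's method was under 0.05. Of these, 673 rose (4.95%) and 586 fell (4.31%), and 469 moved by more than 1.5-fold, 338 up and 131 down. The median log2 fold change over all genes was 0.0094. Scaling by library totals alone moved that median to 0.05 and gave 666 rises and 310 falls, so that rises made up 68.2% of the calls in place of 53.5%. The number of calls depended on single libraries. Omitting 1 sham left 436 calls (WT SHAM 1), 362 (KO SHAM 1), 395 (KO SHAM 2) or 620 (KO SHAM 3), whereas 1296 were left without WT SHAM 4. Omitting KO PAB 2 left 663 and KO PAB 4 left 628, and omitting any other banded library left 841 (KO PAB 3) to 1824 (WT PAB 4). Of 99 named genes that passed, 39 did so whichever single library was left out, among them Nppa, Acta1, Myh7, Ctgf, Ecm1, Col12a1, Col4a1, Itga9, Tgfb2, Vash2, Insr, Ccnd1, Hadhb, Decr1, Hk1 and Bdh1. Most of the 99 were named from this same fit for a small p or a large change without overlap. Their share therefore does not stand for all 1259 calls. Omitting KO SHAM 1 removed 55 of the 99 calls, KO SHAM 2 removed 53, WT SHAM 1 removed 51 and KO SHAM 3 removed 42, while KO PAB 4 removed 41 and KO PAB 2 removed 28.

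With all 16 libraries, 815 of 13458 genes passed (6.06%), 503 upward (3.74%) and 312 downward (2.32%). The calls shared by both fits numbered 508, which is 40.3% of those with 13 libraries and 62.3% of those with 16. Which shams are used therefore enters the results, and the 16-library value is given beside the named genes whose call it ends. Without KO PAB 3, 841 genes passed, 462 upward and 379 downward.

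The left-out shams stood apart from the kept ones for many of the genes called. Among the 31 matrix genes that rose, all 3 left-out shams lay above all 5 kept shams for 24 genes (77.4%), against 236 of all 673 rises (35.1%). Among the 44 metabolic genes that fell, all 3 lay below the kept shams for 39 (88.6%), against 327 of all 586 falls (55.8%). For growth factor rises the left-out shams all lay above the kept ones in 10 of 15 (66.7%), and for cell cycle rises in 7 of 22 (31.8%). Of 16 rises among genes of the loaded heart muscle, the left-out shams all lay above the kept ones for 3. All of these genes were called with the kept shams, so part of each share comes with the choice of genes. The matrix and metabolic shares were higher than those of all rises and falls, which were called the same way. For these called genes, the choice of shams by Adipoq went along with different levels.

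**Figure D2:**
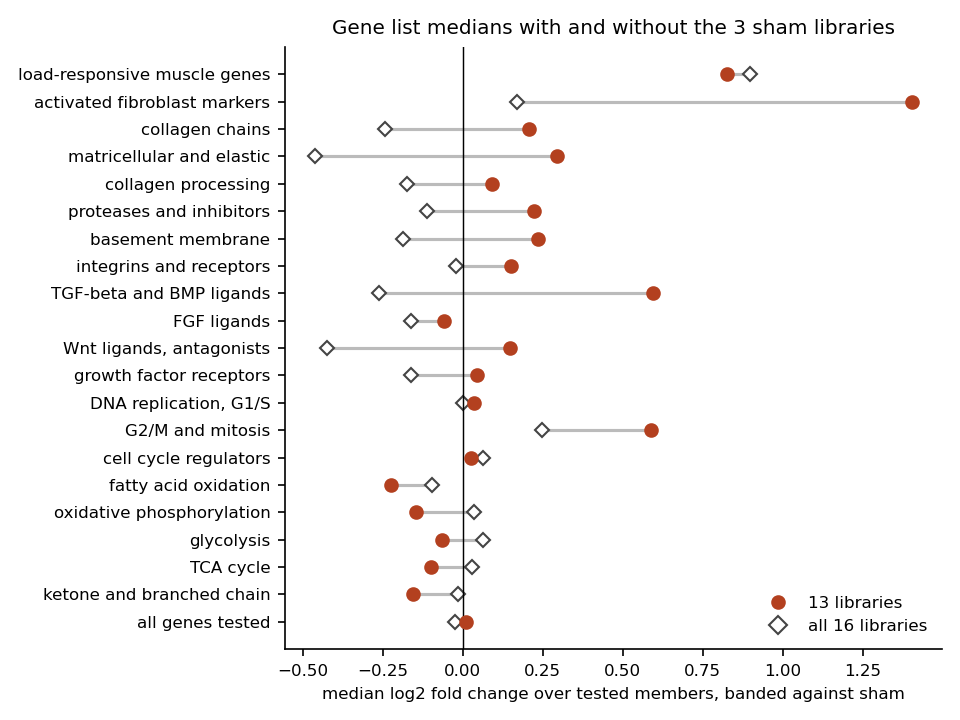
Median log2 fold change of banded against sham over the tested members of each gene list (horizontal axis) with the 13 libraries (filled circles) and with all 16 (open diamonds). Load-responsive muscle genes stay at 0.83 and 0.90, whereas the 6 matrix lists move from medians of 0.09 to 0.30 to medians of −0.46 to −0.02.

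Genes that heart muscle switches on under load rose in both fits. Of 27 load-responsive genes tested, 16 rose (59.3%, against 4.95% of all genes) and none fell by the same edgeR test, with a median log2 fold change of 0.83. The 16-library fit gave 15 rises, 13 of them among the 16, and a median of 0.90. Nppa, which encodes atrial natriuretic peptide, stood at 2.08 and 14.0 CPM in WT SHAM 1 and 4 and at 1.40, 6.51 and 6.72 CPM in KO SHAM 1, 2 and 3, the order used throughout. In the banded libraries it ran from 36.7 to 987 CPM with a median of 378, so the groups did not overlap and the log2 fold change was 5.75 ± 1.06 (SE, adjusted p = 0.0134). The lowest banded values of Nppa were WT, at 36.7 to 81.9 CPM in 3 of the 4 WT PAB libraries.

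Acta1, the skeletal muscle actin that the loaded heart re-expresses, was at 211, 312, 140, 424 and 371 CPM in the shams and at 906 to 3875 CPM after banding, median 1870. Its log2 fold change was 2.99 ± 0.42 (adjusted p = 0.00525). Myh7, the slow beta myosin heavy chain, was at 1519, 2482, 3010, 2486 and 3659 CPM in the shams and at 4049 to 17299 CPM after banding, a log2 fold change of 1.96 ± 0.35 (adjusted p = 0.0116). Neither gene overlapped between the groups. Nppb, the B-type natriuretic peptide, did not pass: the shams held 16.4 to 88.5 CPM and the banded libraries 44.4 to 219 CPM, a log2 fold change of 1.65 ± 0.50 (adjusted p = 0.0604), and it passed with all 16 libraries (2.13, adjusted p = 0.0264).

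**Figure D3:**
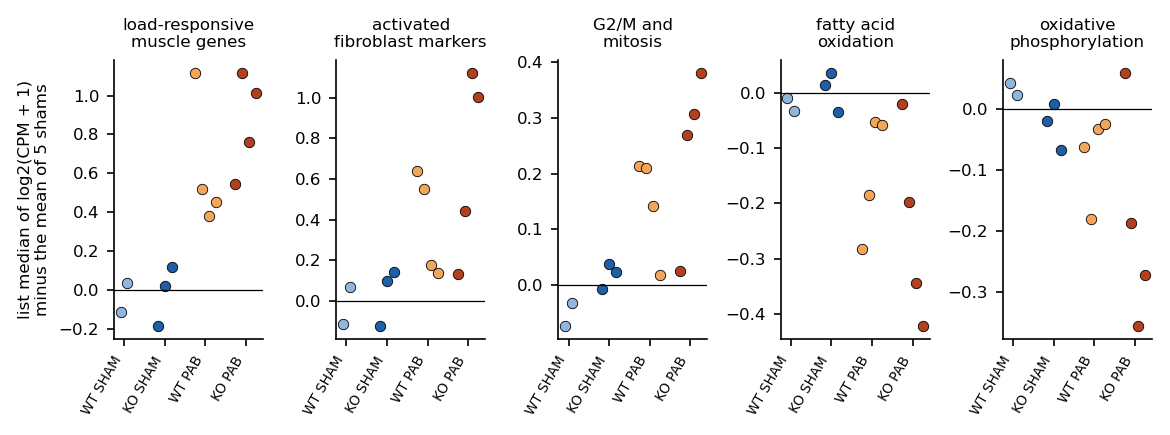
Median over each list's tested genes of log2(CPM + 1) minus the mean of the 5 kept shams (vertical axis), for the 13 libraries by group; each point is 1 library. Banded libraries lie above all shams for load-responsive muscle genes (0.38 to 1.12 against −0.19 to 0.12) and reach into the sham range for the other 4 lists.

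Of 208 extracellular matrix genes tested, 31 rose (14.9%, against 4.95% of all genes) and 4 fell (1.92%, against 4.31%), with a median log2 fold change of 0.21 against 0.0094 for all genes. With all 16 libraries, 7 rose and 8 fell and the median was −0.23. The 31 rises held their direction and call in that fit for 5 genes and had the opposite sign for 8. Without KO PAB 3, 19 rose and 2 fell. Of 17 activated fibroblast markers, 9 rose (52.9%) with a median of 1.40, and none passed with all 16 libraries, where the median was 0.17. That list shares genes with the matrix lists, Col8a1, Ltbp2 and Fap among them, so some of its rises are the same genes. All 7 cartilage and valve markers tested lay above 0 (median 0.80, or −1.05 with all 16) and none passed. The part of either in the matrix result was not tested.

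Several of the best-known products of cardiac fibroblasts did not pass the test. Col1a1, the main chain of type I collagen, was at 53.4, 104, 31.5, 57.1 and 78.0 CPM in the shams and at 56.3 to 160 CPM after banding, median 108. Its log2 fold change was 0.74 ± 0.33 (adjusted p = 0.179) and was −0.24 with all 16 libraries. Col3a1, the type III chain, gave 0.66 ± 0.29 (adjusted p = 0.176) and likewise −0.24. Fn1, which encodes fibronectin, gave 0.50 ± 0.24 (adjusted p = 0.198) and −0.64, and Lox, a collagen and elastin cross-linking oxidase, gave 0.25 ± 0.23 (adjusted p = 0.515) and −1.21. All 4 overlapped between the groups.

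Of 23 collagen chains, 3 rose (13.0%, against 4.95% of all genes): Col8a1, Col12a1 and Col7a1. The last was named after its values were seen and was not in the 16-library fit. Col8a1, a short-chain network collagen, was at 4.57, 6.42, 4.58, 9.62 and 7.38 CPM in the shams and at 7.8 to 39.2 CPM after banding, median 20.7. Its log2 fold change was 1.64 ± 0.38 (adjusted p = 0.025), and it fell short with all 16 libraries (0.48, adjusted p = 0.583). Col12a1, a collagen that sits along fibrils, was at 1.93 to 2.56 CPM in the shams and 2.13 to 5.45 CPM after banding, a log2 fold change of 1.00 ± 0.20 (adjusted p = 0.0145) that turned to −0.52 with all 16 libraries. The left-out shams held 7.16 to 24.4 CPM of Col12a1, more than any banded library.

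Matricellular, elastic fibre and proteoglycan genes held the most matrix rises, with 13 of 61 up (21.3%) and 3 down (4.92%, near the 4.31% of all genes). The median was 0.30, or −0.46 with all 16 libraries, where 1 rose and 4 fell. Ltbp2, which binds elastic microfibrils, was at 1.15, 2.20, 1.87, 1.78 and 2.5 CPM in the shams and at 2.04 to 39.3 CPM after banding, median 9.72. The log2 fold change was 2.70 ± 0.60 (adjusted p = 0.0219), yet WT PAB 4 at 2.04 CPM lay inside the sham range and the left-out shams held 26.6 to 103 CPM, which turns the value to −0.69 in the 16-library fit. Thbs4, a thrombospondin of stretched tissue, was at 0.0886 to 0.943 CPM in the shams and 0.803 to 11.1 CPM after banding, a log2 fold change of 3.30 ± 0.78 (adjusted p = 0.0251), and 0.70 (adjusted p = 0.665) with all 16 libraries.

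Postn, which encodes periostin, a product of activated fibroblasts, was at 5.63, 5.28, 5.86, 4.63 and 3.77 CPM in the shams and at 5.42 to 22.5 CPM after banding, median 13.2. Its log2 fold change was 1.40 ± 0.37 (adjusted p = 0.0363). WT PAB 4 at 5.57 CPM and KO PAB 1 at 5.42 CPM did not exceed the shams. The left-out shams held 23.6 to 73.2 CPM, and the log2 fold change was −0.28 with all 16 libraries. It was 1.34 (adjusted p = 0.065) without KO PAB 3. Ecm1, a secreted matrix glycoprotein, separated the 13 libraries fully, from 31.3 to 34.6 CPM in the shams to 38.6 to 63.4 CPM after banding (log2 fold change 0.66 ± 0.11, adjusted p = 0.00764), but the left-out shams stood at 69.7 to 116 CPM and the 16-library value was −0.09. Tgfbi, a TGF-beta-induced adhesion protein, fell by 0.44 ± 0.08 on the log2 scale (adjusted p = 0.012), from 30.2 to 34.5 CPM to 19.9 to 28.2 CPM, and by 0.57 with all 16 libraries.

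Ctgf, now named Ccn2, encodes a connective tissue growth factor of the matrix and is a known target of YAP and TEAD. It was at 95.1, 108, 66.5, 85.1 and 94.2 CPM in the shams and at 182 to 665 CPM after banding, median 328, with no overlap. The log2 fold change was 1.96 ± 0.35 (adjusted p = 0.0126). The left-out shams held 255 to 383 CPM, within the banded range, and the 16-library value was 1.04 (adjusted p = 0.161).

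The 250 bases before the start of Ccn2 in RefSeq are shown because Ctgf separated the 13 libraries fully and is known as a target of TEAD factors, whose motif occurs there (build GRCr8, chr1:22624615-22624864, minus strand, written in the direction of the gene). Capitals mark GGAATG, searched on both strands.

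Ccn2: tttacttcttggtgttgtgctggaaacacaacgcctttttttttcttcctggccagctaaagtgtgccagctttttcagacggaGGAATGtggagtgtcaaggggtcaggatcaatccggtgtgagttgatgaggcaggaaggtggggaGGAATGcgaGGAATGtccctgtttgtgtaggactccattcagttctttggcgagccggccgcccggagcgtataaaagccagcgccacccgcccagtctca

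The letters occur 3 times, at −166, −101 and −92 from the start. At least 1 match was found in 11.8% of the 27457 promoters of the table and in 9.76% of the 10192 promoters matched to tested genes. A match describes the letters and does not show that a factor binds.

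Enzymes that mature or cut the matrix changed in smaller numbers. Of 28 collagen processing genes, 1 fell (3.57%, near the 4.31% of all genes), Adamts3, named after its values were seen. In that list 3 rose (10.7%, against 4.95%): Loxl1 (log2 fold change 1.48 ± 0.36, adjusted p = 0.0261), Loxl2 (0.72 ± 0.19, adjusted p = 0.0311) and Tgm2 (0.86 ± 0.21, adjusted p = 0.0261), all of them cross-linking enzymes. Tgm2 also passed with all 16 libraries (0.70, adjusted p = 0.0361), while Loxl1 and Loxl2 were at 0.27 and 0.11 there. Of 44 proteases and inhibitors, 3 rose (6.82%, near the 4.95% of all genes): Adamts8, Adamtsl2 and Fap. Adamtsl2, a protein that limits TGF-beta release from microfibrils, was at 3.55, 2.13, 3.45, 2.89 and 2.30 CPM in the shams and at 3.60 to 18.0 CPM after banding, a log2 fold change of 1.73 ± 0.40 (adjusted p = 0.0238) without overlap. In the 16-library fit it was 1.21 (adjusted p = 0.0696), and the left-out shams held 4.8 to 8.02 CPM. Adamts8 gave 2.73 ± 0.70 (adjusted p = 0.0325) and 0.06 with all 16 libraries, where the left-out shams held 3.33 to 19.2 CPM against 0.119 to 0.962 in those kept. Fap, a protease of activated fibroblasts, gave 0.73 ± 0.21 (adjusted p = 0.0455) and 0.29 (adjusted p = 0.493) with all 16.

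Of 26 basement membrane genes tested, 5 rose (19.2%, against 4.95% of all genes) and none fell with 13 libraries. With 16, 3 of these 5 also rose, 1 gene fell and the list median turned from 0.23 to −0.19. Col4a1, a chain of the type IV collagen around muscle cells and vessels, was at 229, 283, 224, 228 and 245 CPM in the shams and at 280 to 389 CPM after banding, median 340. The fitted log2 fold change was 0.47 ± 0.09 (adjusted p = 0.0111) and 0.42 with all 16 libraries, with WT PAB 4 alone inside the sham range. Lama5, a laminin chain, gave 0.91 ± 0.22 (adjusted p = 0.0269) and 0.80 with all 16. Among 26 integrins and matrix receptors, 4 rose (15.4%), among them Itga9 from 19.5 to 24.5 CPM to 25.7 to 52.1 CPM and Ddr1, a collagen-binding kinase, from 13.2 to 19.4 CPM to 20.9 to 36.7 CPM. Their log2 fold changes were 0.98 ± 0.18 and 0.72 ± 0.14, and 0.44 and 0.48, past no threshold, with all 16 libraries.

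**Figure D4:**
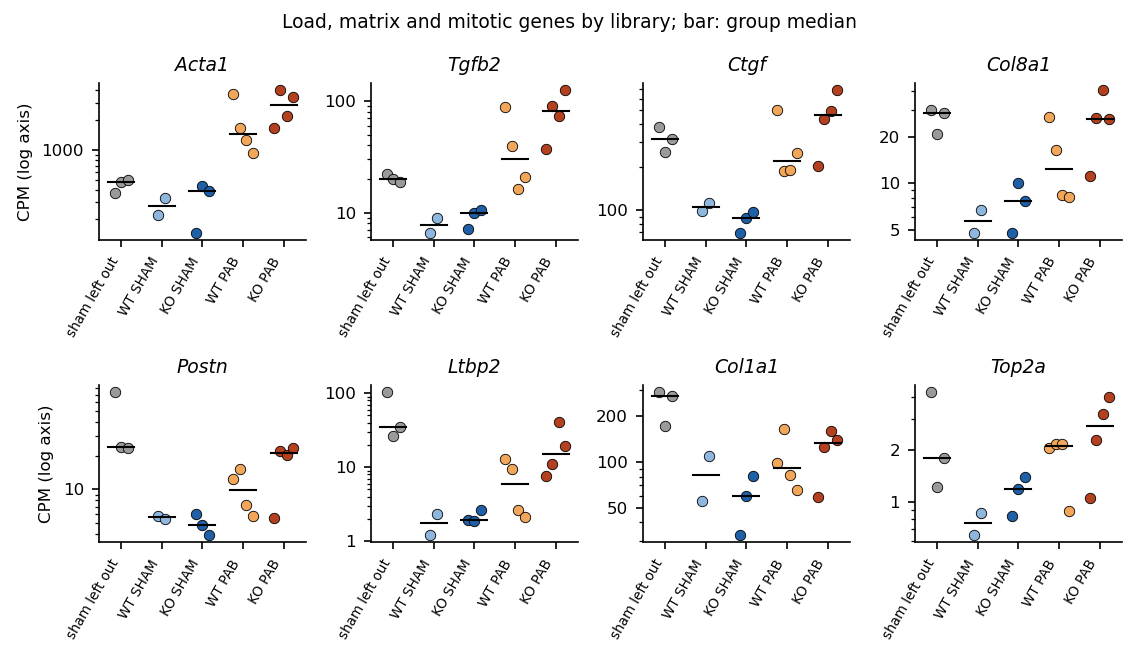
CPM (vertical axes, logarithmic, here scaled over all 16 libraries) of 8 genes in the left-out shams (grey), the kept shams and the banded libraries; each point is 1 library and each bar a group median. The left-out shams lie beside the kept shams for Acta1, and level with or above the banded libraries for Col8a1, Postn, Ltbp2 and Col1a1.

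Of 174 growth factor ligands, antagonists and receptors tested, 15 rose (8.62%, against 4.95% of all genes) and 10 fell (5.75%, near the 4.31% of all genes), with a median log2 fold change of 0.08. With all 16 libraries 3 rose, 14 fell and the median was −0.17. Among 24 TGF-beta and BMP family ligands and antagonists, 6 rose (25%) and 1 fell (4.17%, near the share of all genes), with a median of 0.59. With all 16 libraries 1 of that list rose, 2 fell and the median was −0.26.

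Tgfb2, a ligand that drives matrix synthesis, was at 6.29, 8.58, 6.87, 9.59 and 10.1 CPM in the shams and at 15.8 to 121 CPM after banding, median 54.9. The groups did not overlap, and the log2 fold change was 2.84 ± 0.47 (adjusted p = 0.00977). It passed in both fits, at 2.16 (adjusted p = 0.011) with all 16 libraries, whose left-out shams held 18.7 to 22.3 CPM. The other 2 ligands moved less: Tgfb1 rose by 0.41 ± 0.11 (adjusted p = 0.0347; 0.22, adjusted p = 0.281, with 16 libraries) and Tgfb3 gave 0.60 ± 0.23 (adjusted p = 0.11; −0.26 with 16). Tgfb1 was at 6.58 to 9.49 CPM in WT PAB, overlapping the shams at 6.22 to 7.64 CPM, and at 10.1 to 11.1 CPM in KO PAB.

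Inhbb, an activin subunit, was at 2.17, 1.69, 1.64, 2.29 and 1.27 CPM in the shams and at 2.38 to 5.44 CPM after banding, without overlap (log2 fold change 1.04 ± 0.22, adjusted p = 0.0168). In the 16-library fit it was 0.63 (adjusted p = 0.113), and the left-out shams held 3.01 to 4.23 CPM, inside the banded range. Fstl3, a secreted antagonist of activins, went from 1.82 to 3.03 CPM to 2.87 to 11.2 CPM (1.59 ± 0.32, adjusted p = 0.016), and was at 0.35 with all 16 libraries. Gdf15, a stress-induced family member, had 0 to 2 counts in each sham kept and 3 to 32 in each banded library. Its fitted log2 fold change of 3.14 ± 0.72 (adjusted p = 0.0209) rests on those few sham counts and is no estimate of size, and the gene was not in the 16-library fit.

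Tgfa, a ligand of the epidermal growth factor receptor, was at 0.576, 0.591, 0.565, 0.296 and 0.451 CPM in the shams and at 0.957 to 12.1 CPM after banding, median 2.82, without overlap. Banding shifted it on the log2 scale by 3.19 ± 0.78 (adjusted p = 0.0285), and 1.97 (adjusted p = 0.0838) with all 16 libraries. Vash2, a vasohibin that cuts tyrosine from tubulin and acts on vessel growth, rose in both fits: the shams held 1.99 to 7.87 CPM and the banded libraries 11.3 to 31.8 CPM (2.27 ± 0.35, adjusted p = 0.00787; 2.09 with 16 libraries). Vegfa, the main vascular growth factor, was not separated, at 163 to 262 CPM in the shams and 172 to 292 CPM after banding (−0.03 ± 0.12, adjusted p = 0.894; 0.24 with 16 libraries).

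Of 11 fibroblast growth factors, none rose and 3 fell (27.3%, against 4.31% of all genes). Fgf13, an intracellular member that binds sodium channels, was at 28.3 to 33.1 CPM in the shams and 20.5 to 24.4 CPM after banding, a fall without overlap (−0.41 ± 0.06, adjusted p = 0.00525). Fgf16, a cardiac ligand, fell by 0.54 ± 0.11 (adjusted p = 0.0134), from 18.2 to 24.1 CPM to 11.2 to 17.0 CPM. The left-out shams, at 12.1 to 14.3 CPM, were as low as the banded libraries for Fgf16, and neither gene passed with all 16 (Fgf13 −0.16 and Fgf16 −0.33). Pdgfc, a platelet-derived growth factor, fell in both fits (−0.63 and −0.64). Igf1 gave 0.71 ± 0.44 (adjusted p = 0.326), where KO PAB 3 held 38.1 CPM and the other banded libraries 5.34 to 9.10 CPM, and 0.15 without KO PAB 3.

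Of 18 Wnt ligands and antagonists, 1 rose (5.56%, near the 4.95% of all genes) and 2 fell (11.1%, against 4.31%). Dkk2, a Wnt antagonist, fell in both fits (log2 fold change −1.29 ± 0.31, adjusted p = 0.0252; −1.22 with 16 libraries). Sfrp2, a secreted Wnt-binding protein of fibroblasts, was at 0.387 to 1.24 CPM in the shams and at 1.24 to 26.0 CPM after banding. It rose by 2.87 ± 0.82 (adjusted p = 0.0485), was highest in KO PAB 3 (2.01, adjusted p = 0.0438, without it), and gave −0.33 with all 16 libraries, whose left-out shams held 15.5 to 33.5 CPM. Among 62 receptors, 5 rose (8.06%) and 1 fell (1.61%). Insr, the insulin receptor, rose from 68.8 to 80.3 CPM to 84.1 to 108 CPM (0.34 ± 0.07, adjusted p = 0.0133; 0.35 with 16 libraries), and Tgfbr3, a TGF-beta co-receptor, fell in both fits (−0.37 and −0.48).

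Most of the cell cycle genes that rose belonged to the list for the second gap phase and mitosis. Of 159 cell cycle genes, 22 rose (13.8%, against 4.95% of all genes) and 4 fell (2.52%, against 4.31%), with a median log2 fold change of 0.23. In the G2/M and mitosis list 63 of 70 tested members lay above 0, 14 rose (20%) and 1 fell (1.43%), and the median was 0.59. With all 16 libraries none of that list passed in either direction and the median was 0.25, and without KO PAB 3 the 14 rises became 5 with a median of 0.59. In the DNA replication and G1/S list 3 of 52 rose (5.77%, near the share of all genes) and 1 fell, with a median of 0.03.

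Top2a, the topoisomerase that untangles replicated chromosomes, was at 0.620, 0.827, 0.803, 1.15 and 1.35 CPM in the shams and at 0.855 to 3.90 CPM after banding, median 2.09. WT PAB 4 and KO PAB 1, at 0.855 and 1.02 CPM, lay within the shams, and the log2 fold change was 1.24 ± 0.32 (adjusted p = 0.0283; 0.53, adjusted p = 0.445, with 16 libraries). Mki67, the proliferation antigen Ki-67, gave 0.77 ± 0.20 (adjusted p = 0.029) and Prc1, which bundles microtubules of the dividing cell's midzone, gave 1.19 ± 0.28 (adjusted p = 0.0218). The 16-library fit put them at 0.31 (adjusted p = 0.527) and 0.62 (adjusted p = 0.297). Without KO PAB 3, Top2a and Mki67 missed the threshold (adjusted p = 0.0529 and 0.0559). Espl1, the protease that releases sister chromatids, was at 0.0394 to 0.185 CPM in the shams and 0.111 to 0.605 CPM after banding (1.77 ± 0.43, adjusted p = 0.0251; 0.59, adjusted p = 0.468, with 16 libraries), and is named after its values were seen because its promoter is printed with the others. The Espl1 fold change rests on few counts in the shams and is no estimate of size. Ccnb1, the mitotic cyclin B1, did not pass (0.26 ± 0.25, adjusted p = 0.541), and which cells held these transcripts was not tested.

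Promoters of 3 rises of the list are shown because many mitotic genes share 2 short elements, the CHR element (TTTGAA or TTCGAA) and the CCAAT box (CCAAT), both searched on either strand and marked in capitals. The sequences are the 250 bases before the start in RefSeq, build GRCr8, in the direction of the gene: Prc1 at chr1:143659231-143659480 (plus strand), Top2a at chr10:84473094-84473343 (minus strand) and Espl1 at chr7:135302466-135302715 (plus strand).

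Prc1: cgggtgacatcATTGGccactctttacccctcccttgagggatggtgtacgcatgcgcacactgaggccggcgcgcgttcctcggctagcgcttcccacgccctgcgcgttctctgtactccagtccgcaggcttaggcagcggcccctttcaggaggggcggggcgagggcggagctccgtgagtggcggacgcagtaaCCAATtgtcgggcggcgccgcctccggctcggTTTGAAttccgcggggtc
Top2a: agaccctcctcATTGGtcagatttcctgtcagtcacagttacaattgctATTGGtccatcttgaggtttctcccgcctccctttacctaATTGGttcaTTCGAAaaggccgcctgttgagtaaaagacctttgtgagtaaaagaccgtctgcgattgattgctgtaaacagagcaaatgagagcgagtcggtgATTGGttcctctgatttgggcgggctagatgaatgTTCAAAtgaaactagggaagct
Espl1: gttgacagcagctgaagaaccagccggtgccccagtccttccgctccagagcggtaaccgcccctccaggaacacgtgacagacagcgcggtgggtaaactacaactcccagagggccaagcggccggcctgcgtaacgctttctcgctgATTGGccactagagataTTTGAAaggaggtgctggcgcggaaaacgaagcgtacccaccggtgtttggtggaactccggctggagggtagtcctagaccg

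In Prc1 and Top2a a CHR element lies close to the start, at −18 and −22, with a CCAAT box at −50 and −57. In Espl1 the pair lies at −83 and −100. Of the 70 tested members of the list, 61 had a promoter in the table, and 28 of these (45.9%) held both elements, against 4.41% of the promoters of all tested genes and 6.22% of the 27457 in the table. Of the 14 that rose, 10 had a promoter and 7 held both. The share describes the whole list, risen or not, and a match does not show that a factor binds.

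Of 37 cell cycle regulators, 5 rose (13.5%, against 4.95% of all genes) and 2 fell (5.41%, near the 4.31% of all genes), among them cyclins. Ccnd1, a D-type cyclin that starts the cycle under growth signals, was at 17.7, 28.5, 14.6, 16.1 and 19.2 CPM in the shams and at 28.2 to 48.5 CPM after banding, median 39.5, with WT PAB 4 alone inside the sham range. The fitted log2 fold change was 1.00 ± 0.18 (adjusted p = 0.0115), and 0.56 (adjusted p = 0.165) with all 16 libraries. Ccnd3, another D-type cyclin, rose in both fits (0.39 and 0.41). Ccni, an atypical cyclin, fell in both (−0.40 and −0.38). Cdkn1a, the inhibitor p21, was not separated (−0.30 ± 0.28, adjusted p = 0.527).

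Metabolic genes moved mostly downward and by little. Of 375 tested, 10 rose (2.67%, against 4.95% of all genes) and 44 fell (11.7%, against 4.31%), with a median log2 fold change of −0.10. With all 16 libraries 9 rose and 4 fell and the median was 0.0022; 2 of the 44 falls passed there. Without KO PAB 3, 8 rose and 22 fell.

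Fatty acid uptake and oxidation held 13 falls (22.4%, against 4.31% of all genes) and no rise among 58 genes, with a median of −0.23. In the 16-library fit none of the 13 falls passed, 2 genes rose and 1 fell, and the median was −0.10. Without KO PAB 3, 6 fell. Hadhb, the thiolase subunit of the mitochondrial trifunctional protein, was at 1749, 1594, 1682, 1805 and 1611 CPM in the shams and at 905 to 1428 CPM after banding, median 1129, without overlap. Banding shifted it on the log2 scale by −0.56 ± 0.11 (adjusted p = 0.0126). The left-out shams held 918 to 1332 CPM, like the banded libraries, and the 16-library value was −0.34 (adjusted p = 0.185). Decr1, the reductase for unsaturated fatty acids, went from 198 to 243 CPM to 105 to 193 CPM (−0.58 ± 0.12, adjusted p = 0.0145; −0.39, adjusted p = 0.117, with 16 libraries). Acss1, which activates acetate in mitochondria, went from 518 to 617 CPM to 344 to 514 CPM (−0.44 ± 0.10, adjusted p = 0.023; −0.26, adjusted p = 0.229, with 16 libraries).

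Cpt1b, Cd36 and Ppargc1a did not pass. Cpt1b, the muscle carnitine transferase that admits fatty acids to mitochondria, was at 562 to 603 CPM in the shams and 537 to 690 CPM after banding (0.09 ± 0.06, adjusted p = 0.369). Cd36, a fatty acid transporter, gave −0.17 ± 0.08 (adjusted p = 0.191). Ppargc1a, a coactivator of mitochondrial genes, gave 0.01 ± 0.15 (adjusted p = 0.983), a value whose sign changes under limma-voom, under a replicate block and without any of 4 single libraries.

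Of 77 nuclear genes of oxidative phosphorylation, 13 fell (16.9%, against 4.31% of all genes) and none rose (against 4.95%), with a median of −0.15 (0.04, and no call, with 16 libraries). Cox8b, a heart subunit of cytochrome oxidase, was at 343, 318, 310, 322 and 294 CPM in the shams and at 206 to 290 CPM after banding, median 260, a difference of −0.35 ± 0.08 (adjusted p = 0.0178; −0.14, adjusted p = 0.539, with 16 libraries) without overlap. For all 13 falls the 3 left-out shams lay below the 5 kept ones and their median lay below the banded median. Over all 586 falls, these shares were 55.8% and 41.6%. The 13 were called with the kept shams, so part of this position comes with the choice of genes. Of the 12 mitochondrially encoded genes none passed, with a median of −0.09.

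**Figure D5:**
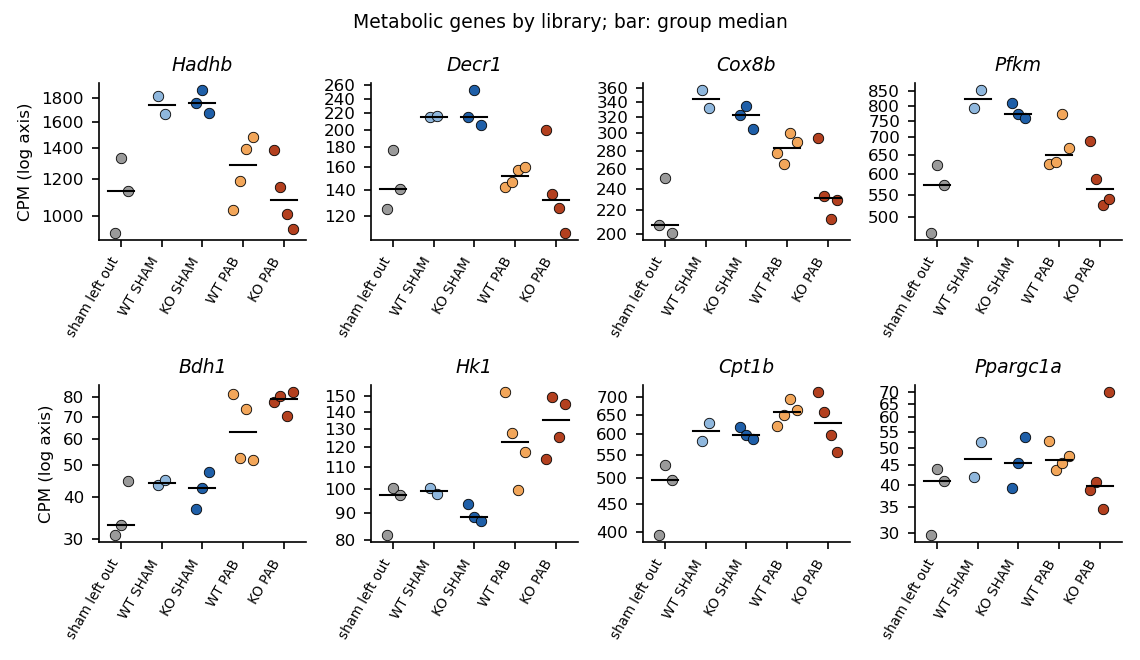
CPM (vertical axes, logarithmic, here scaled over all 16 libraries) of 8 metabolic genes by group; each point is 1 library and each bar a group median. For Hadhb, Decr1, Cox8b and Pfkm the left-out shams (grey) lie within or below the range of the banded libraries, whereas for Bdh1 and Hk1 they lie with the kept shams.

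Glucose and ketone genes changed in both directions. Hk1, the hexokinase form that predominates in the fetal heart, rose in both fits, from 84.1 to 96.7 CPM to 96.3 to 146 CPM (log2 fold change 0.47 ± 0.10, adjusted p = 0.0158; 0.46 with 16 libraries). Bdh1, which oxidises the ketone body beta-hydroxybutyrate, was at 41.8, 43.3, 35.6, 41.3 and 45.9 CPM in the shams and at 50 to 79.8 CPM after banding, median 72.9, without overlap. The fitted log2 fold change was 0.74 ± 0.12 (adjusted p = 0.00787) and 0.81 with all 16 libraries, whose left-out shams held 30.8 to 44.9 CPM. Pfkm, muscle phosphofructokinase, fell by 0.35 ± 0.08 (adjusted p = 0.0179) and Eno3, muscle enolase, by 0.70 ± 0.17 (adjusted p = 0.0261), of which Eno3 passed with all 16 libraries and Pfkm did not (−0.17, adjusted p = 0.433).

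Of 29 ketone and branched-chain amino acid genes, 1 rose (Bdh1, 3.45%) and 6 fell (20.7%, against 4.31% of all genes). The falls included Aldh6a1 in valine breakdown (−0.35 ± 0.08, adjusted p = 0.0216; −0.17, adjusted p = 0.404, with 16 libraries) and Mccc2 in leucine breakdown (−0.27 ± 0.07, adjusted p = 0.0258; −0.10, adjusted p = 0.61, with 16). Of 27 citric acid cycle genes, Idh1 and Ogdhl rose (7.41%, near the 4.95% of all genes) and 3 fell (11.1%). Ogdhl missed the threshold with all 16 libraries (0.38, adjusted p = 0.197). Of 22 glycogen genes, 2 fell (9.09%): Ppp1r3d, which targets a phosphatase to glycogen (−0.68 ± 0.11, adjusted p = 0.00721; −0.45, adjusted p = 0.0817, with 16 libraries), and Phkg1, a phosphorylase kinase subunit (−0.63 ± 0.15, adjusted p = 0.0221; −0.67 with 16 libraries). In lipid synthesis, storage and cholesterol, 3 of 42 rose (7.14%, near the share of all genes) and none fell. Lss of the sterol pathway was among the rises (0.50 ± 0.13, adjusted p = 0.0319; 0.31, adjusted p = 0.166, with 16 libraries).

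The effect of banding did not differ detectably between the genotypes. The KO minus WT contrast called none of 13583 genes (0%) by edgeR, with 296 at an unadjusted p under 0.05 and a smallest adjusted p of 0.555, and DESeq2 called 2. The WT estimate rests on 2 shams and the KO estimate on 3. The KO estimate was numerically the larger for Tgfb2 (3.16 against 2.41), Ctgf (2.42 against 1.42) and Postn (1.85 against 0.84), differences that did not pass.

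Among the largest rises outside the 4 themes, named by the same rule of no overlap within either genotype, several passed in both fits. Tbx15, a T-box transcription factor, had 0 to 0.205 CPM in the shams and 0.617 to 3.43 CPM after banding (adjusted p = 0.00525), and its fitted log2 fold change of 4.58 rests on those few sham counts. Ankrd23, a stretch-responsive ankyrin repeat protein of the sarcomere, was at 2.39, 4.41, 2.38, 7.07 and 14.5 CPM in the shams and at 14.3 to 113 CPM after banding, median 63.4 (3.45 ± 0.65, adjusted p = 0.0145; 3.50 with 16 libraries). Only WT PAB 2 at 14.3 CPM met the sham range. Cdhr1, a cadherin family member, rose from 0.0787 to 0.333 CPM to 0.409 to 5.88 CPM (3.73 ± 0.65, adjusted p = 0.0102; 3.26 with 16 libraries).

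Myl7, the atrial myosin light chain, was at 0 to 0.655 CPM in the shams and at 0.727 to 13.6 CPM after banding (log2 fold change 4.00 ± 1.01, adjusted p = 0.031), but the left-out shams held 6.23 to 9.54 CPM and the 16-library value was 0.73 (adjusted p = 0.674). Whether pieces differed in atrial tissue was not tested. The sum of 12 atrial markers was 166 to 260 CPM in the shams kept, 300 to 471 CPM in those left out and 196 to 1316 CPM after banding. Nppa, whose rise under load is given above, is among the 12. A few members carry that sum: of 11 tested, 4 rose (36.4%, against 4.95% of all genes), 6 lay above 0 and 5 below, with a median log2 fold change of 0.16.

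The largest falls were named among genes whose groups did not overlap within either genotype, so their separation is part of the choice. Myo16, an unconventional myosin, was at 3.41, 3.70, 5.21, 3.44 and 3.69 CPM in the shams and at 0.332 to 3.38 CPM after banding, median 0.781 (−1.90 ± 0.39, adjusted p = 0.0157; −1.82 with 16 libraries), with KO PAB 1 at 3.38 CPM just below the shams. Lsamp, a cell adhesion protein of the limbic system, went from 11.4 to 17.0 CPM to 3.13 to 8.12 CPM (−1.14 ± 0.22, adjusted p = 0.0138). Car2, carbonic anhydrase 2, was at 18.9, 17.3, 18.4, 21.8 and 17.1 CPM in the shams and at 7.01 to 12.6 CPM after banding, a fall of 0.92 ± 0.14 on the log2 scale (adjusted p = 0.00575). Epha3, an ephrin receptor, fell by 1.15 ± 0.19 (adjusted p = 0.00931) from 13.4 to 26.1 CPM, but the left-out shams held 4.67 to 7.59 CPM and it did not pass with all 16 libraries (−0.76, adjusted p = 0.142).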

How the data were processed

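RNA was measured in 16 right ventricle libraries, of which 13 were compared. The deposited values are expected counts per gene, estimated reads that need not be whole, which the authors made with tools that include STAR 2.5.3a and RSEM 1.3.0 on the build Rnor_6.0, per the submitters' processing notes. Annotation, strand setting and any rounding are not given in the sources used here, so reads of overlapping or near-identical genes may be split between them. Expected counts were rounded to whole numbers. Each file lists 32754 entries, of which 13748 were at 0 everywhere, and 274 repeated symbols were kept apart. Genes were filtered with filterByExpr at a minimum count of 10, which left 13583 holding at least 99.97% of each library's counts.

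Libraries were scaled by TMM in edgeR 4.0.16 (R 4.3.3, limma 3.58.1), and banded was compared with sham by the quasi-likelihood test with genotype as a covariate and Benjamini-Hochberg adjustment at 0.05. The KO minus WT difference of effects came from a fit with 4 group means. The left-out shams' CPM come from scaling all 16 libraries together. Per-library list medians use log2(CPM + 1). Total counts were 22168110 to 34718633 per library, and genes with few counts per library are the least precise.

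The members, gene lists and tests were chosen with earlier results of these data known. Genes were named by rule: up to 4 per list with the smallest p among those that passed with a mean of at least 1 CPM, the 10 largest rises and 10 largest falls with no overlap within either genotype, and a fixed set of well-known genes. Other genes named were chosen after their values were seen, and some genes that the rule or a count covers are not reported here. Alternatives were RLE size factors, library totals, DESeq2 1.42.0, limma-voom, no filter, a stricter filter, a replicate block, 4 group means, all 16 libraries, an Adipoq limit of 1, the limit applied to banded libraries, a minimum fold of 1.5, and leaving out each library. The fitting steps were tested on simulated data. Promoters came from RefSeq (GRCr8), matched by symbol or synonym for 10204 of the 13583 genes.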

Additional observations from a re-analysis of the deposited data

Results flagged for a closer look

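In groups of 4 banded libraries, 25 of 232 tested groups of values (10.8%) held 1 library far from the other 3 by Dixon's criterion, which chance flags in about 1 of 20 groups. That rate holds for independent, normally distributed values. The values here were unlogged CPM of genes named partly by their values, so the shares do not compare directly. WT PAB 1 and KO PAB 3 accounted for 7 each, KO PAB 1 for 5, WT PAB 4 for 3, KO PAB 4 for 2 and WT PAB 3 for 1. All values below are CPM of 1 library beside the range of the other 3 of its group.

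WT PAB 1 was high for load-responsive Nppa (443 against 36.7 to 81.9), Ankrd23 (113 against 14.3 to 20.9) and Sypl2 (17.4 against 2.16 to 4.11). It was also high for Tgfa (12.1 against 0.957 to 1.67), Cdhr1 (4.2 against 0.409 to 0.84) and Fen1 (7.37 against 3.86 to 4.26), and low for Lsamp (3.13 against 7.36 to 8.12). KO PAB 3 was high for Adipoq (5.05 against 0 to 0.0364), Igf1 (38.1 against 5.64 to 9.1), Lox (17.9 against 7.83 to 8.44) and Trh (12.5 against 0.659 to 2.04). It was also high for Tgfbi (28.2 against 19.9 to 21.3), Dkk2 (1.89 against 0.718 to 0.805) and Ccnb1 (0.783 against 0.581 to 0.586).

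KO PAB 1 was low for Postn (5.42 against 19.7 to 22.5) and Myh7 (6560 against 11800 to 12800). It was high for Myo16 (3.38 against 0.512 to 0.889), Atp6ap1l (4.84 against 2.7 to 2.85) and Idh3g (496 against 417 to 428). WT PAB 4 was low for Top2a (0.855 against 1.95 to 2.1) and Nid2 (8.21 against 11.4 to 11.7) and high for Flrt3 (1.82 against 0.871 to 1.02). KO PAB 4 was high for Ppargc1a (67.3 against 33.5 to 39) and Tgfa (11.3 against 2.47 to 3.7). WT PAB 3 was high for Ncapg2 (21.6 against 16.3 to 16.9). Outside the comparison, Adipoq stood at 56.5, 31 and 13.2 CPM of the library total in WT SHAM 2, WT SHAM 3 and KO SHAM 4.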

How the results depend on the processing

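The count of 1259 changed genes was 1947 with DESeq2, 815 with all 16 libraries, 8 against a minimum fold of 1.5 (457 at an unadjusted p under 0.05) and 362 to 1824 when single libraries were left out; the cause was not tested. The other settings gave 841 to 1282. Among them, the Adipoq limit of 1 picks the same 13 libraries and repeats the main fit. The limit applied to banded libraries drops KO PAB 3 alone and repeats the fit without it. The tallies below of gene values and list medians include both, so part of their agreement is fixed by construction. The KO minus WT contrast gave 2 calls with DESeq2 and 0 under every other setting run. Of 2470 alternative values of the 99 named genes that passed, 1911 stayed on the same side of the threshold, 553 missed it and 6 reversed. All reversals among these came with all 16 libraries, in log2 fold change: Col12a1 at −0.52, Ecm1 at −0.091, Ltbp2 at −0.69, Cd44 at −0.040, Sfrp2 at −0.33 and Postn at −0.28. Among the 17 that did not pass, that fit reversed Col1a1 and Col3a1 (both −0.24), Fn1 (−0.64), Lox (−1.21), Tgfb3 (−0.26) and Vegfa (0.24). With single libraries left out, Vegfa ran from −0.097 to 0.0235, above 0 without KO SHAM 3, WT PAB 2 or WT SHAM 1. Ppargc1a was at −0.0156 with limma-voom and −0.0226 with the replicate block, and ran from −0.141 to 0.0662 with single libraries left out, below 0 without KO PAB 4, KO SHAM 1, WT PAB 1 or WT SHAM 1. Whether replicate numbers pair the libraries is not in the labels. Deviations of 15 same-number pairs correlated at −0.202 to 0.365, 5 of them above 0.1, and 4 of 13 libraries correlated best with their own number. With no value for unpaired libraries beside them, these numbers do not settle it. The fit with a replicate block called 888 genes, 490 up and 398 down. Of 875 alternative list medians, 824 moved by less than 1 SD of the per-library list medians over the 8 banded libraries, both genotypes together. That SD was on the log2(CPM + 1) scale, unlike the fitted fold changes. The other 51 fell on 29 of 35 lists. Depth limits genes whose shams held few counts, such as Gdf15, Tbx15 and Espl1.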

Other observations

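Of 13 tested markers of Schwann cells and nerve, 4 fell (30.8%, against 4.31% of all genes) and 2 rose (15.4%, against 4.95%), 6 lay above 0 and 7 below, with a median log2 fold change of −0.34 (−0.45 with all 16 libraries, where 4 fell and 1 rose). The genes of this list were named after their values were seen, except Cdh19. Scn7a, a sodium channel of glia and nerve, was at 23.6, 24.9, 28.1, 24.5 and 19.6 CPM in WT SHAM 1, WT SHAM 4 and KO SHAM 1, 2 and 3 and at 7.63 to 18.6 CPM after banding. It fell by 0.85 ± 0.18 on the log2 scale (edgeR adjusted p = 0.0178) without overlap. Cdh19, a Schwann cell cadherin, fell by 1.05 ± 0.25 (adjusted p = 0.0241) and L1cam, an axonal adhesion molecule, by 0.76 ± 0.16 (adjusted p = 0.0162). These 3 falls also passed with all 16 libraries. Ncam1, the neural cell adhesion molecule, which muscle cells can also make, rose from 2.48 to 7.26 CPM to 10.7 to 60.4 CPM (2.79 ± 0.48, adjusted p = 0.0111, and 1.97 with 16 libraries). The summed level of the 14 markers listed, Ncam1 among them, was 52.15 to 69.24 CPM of the library total in the kept shams. After banding the sum was 48.64 to 108.3 CPM, with a median of 65.1 against 56.6 in those shams. Whether the amount of nerve or glia changed was not tested.

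Of 19 immediate early genes, 2 fell (10.5%, against 4.31% of all genes) and none rose (against 4.95%), with a median log2 fold change of −0.48. Without KO PAB 3, and with library totals as the scaling, none fell. Jun, a transcription factor, was at 74.7 to 201 CPM in the shams, at 85.5 to 134 CPM in WT PAB and at 48.3 to 62.6 CPM in KO PAB (−0.62 ± 0.17, adjusted p = 0.0431). Dusp1, a phosphatase of stress kinases, was at 275 to 399 CPM in the shams, at 220 to 391 CPM in WT PAB and at 161 to 195 CPM in KO PAB (−0.52 ± 0.15, adjusted p = 0.0485). Neither passed with all 16 libraries, and the difference between genotypes passed for no gene. These genes also respond within minutes to tissue handling, and the time to freezing was not analysed here. All 15 macrophage and monocyte markers tested lay above 0 (median 0.39) and none passed. The median was 0.19 without KO PAB 3 and −0.26 with all 16 libraries. By library and relative to the kept shams, the list median was 1.19 in KO PAB 3 and −0.12 to 0.43 in the other banded libraries.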
